A study of Mus musculus with 16 samples.

Results

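The Bcl2 family members described here are 10 genes that lie outside the p53-induced trio of Bax, Bbc3 and Pmaip1: Bcl2, Bcl2l1, Mcl1, Bmf, Bok, Bid, Bad, Bcl2l11, Hrk and Bak1. They were chosen by name, and all probes that carried a RefSeq transcript of 1 of them were taken. That gave 20 probes for 10 genes, out of 56605 probes on the array, 32994 of which could be named, for 22911 genes. The array measured cerebral cortex RNA of 16 male mice, 1 array per mouse, in 4 groups of 4. These were Neil1 knockouts given 6 Gy of whole-body gamma radiation at 0.74 Gy/min, sham-treated Neil1 knockouts, wild-type mice given the same dose, and sham-treated wild types. Per the labels, all were 28 to 42 weeks old, on a C57BL/6 background and given the thymidine analogue BrdU at 100 mg/kg both ahead of the treatment and 2 h later, and the wild types were littermates. Cortex was taken at 20 h.

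Proteins of the Bcl2 family decide whether the outer membrane of the mitochondrion is opened, the step that lets cytochrome c out and starts the caspases. Bcl2, Bcl2l1 (Bcl-xL) and Mcl1 keep it closed, Bak1 and, by a less settled route, Bok open it, and the BH3-only proteins Bmf, Bid, Bad, Bcl2l11 (Bim) and Hrk sense damage or lost survival signals and tip the balance. In the adult brain Bcl2l1 is known as the main survival member of neurons, and many of the family's proteins are controlled by cleavage, phosphorylation or turnover, which an RNA array does not see.

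All values are log2 of Agilent's processed signal on a scale set by the array's own 75th percentile, which was subtracted. A level of 0 is therefore the 75th percentile, and a difference of 1 is a 2-fold change. The 75th percentile itself was between 1075 and 1766 in irradiated labelled knockouts, 1513 and 2240 in sham labelled knockouts, 1976 and 2510 in irradiated wild types, and 2078 and 2725 in sham wild types. Between 62.4% and 72.4% of probes per array were well above background, no spot was saturated, and 39589 probes were bright enough to test. All knockouts lay on 1 slide and all wild types on another, and on both slides the irradiated mice lay in 1 row and the sham mice in the other. So genotype cannot be told apart from slide, nor irradiation from slide row. The Neil1 probe did not check the genotype. It read -2.19, -2.56, -2.15 and -2.55 after irradiation, against -2.17, -2.47, -2.60 and -2.27 in sham among the labelled knockouts. Among wild types it read -3.39, -3.61, -4.32 and -3.69 after irradiation, against -3.30, -3.75, -3.96 and -3.60 in sham. It was thus brighter in every array of the labelled knockouts, by 1.39 after irradiation (adjusted p = 0.00643) and 1.27 in sham (adjusted p = 0.0364). Its position relative to the deleted part was not looked up here, and "labelled knockout" is used throughout for this reason. The 4 genes each taken to mark neurons, excitatory cortical neurons, interneurons and astrocytes were above background on all 16 arrays. The mean of 4 striatal neuron genes varied widely within every group. It lay between 0.13 and 2.28 in irradiated and 0.02 and 2.9 in sham labelled knockouts. In wild types it lay between -0.61 and 3.02 after irradiation and between 0.75 and 2.45 in sham. The part of this variation in the members' values was not tested.

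The upstream sequences of 2 BH3-only genes and of Bax are shown because Bmf and Bcl2l11 were the only members with a match to the motifs of 2 factors known to drive the family, p53 and FOXO, and Bax is a p53-induced relative. RefSeq held 16 windows of 300 bases (250 before and 50 after a transcript start, assembly GRCm38.p6) for the 10 members, and 4 for Bax and Bbc3. Each was searched on both strands for the p53 half-site consensus of 10 bases and for the FOXO motif GTAAACA or its reverse, TGTTTAC. The 250 bases before the start are printed 5′ to 3′ in the direction of transcription, with the match in capitals, a p53 half-site in Bmf and Bax and a FOXO motif in Bcl2l11. Bmf is chr2:118544588-118544837 on the minus strand, Bcl2l11 is chr2:128125788-128126037 on the plus strand, and Bax is chr7:45466899-45467148 on the minus strand.
Bmf: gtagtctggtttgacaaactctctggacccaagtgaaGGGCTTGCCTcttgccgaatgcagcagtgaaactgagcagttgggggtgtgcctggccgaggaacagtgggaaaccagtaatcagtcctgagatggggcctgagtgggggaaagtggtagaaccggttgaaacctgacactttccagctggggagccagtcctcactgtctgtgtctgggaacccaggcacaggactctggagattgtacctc
Bcl2l11: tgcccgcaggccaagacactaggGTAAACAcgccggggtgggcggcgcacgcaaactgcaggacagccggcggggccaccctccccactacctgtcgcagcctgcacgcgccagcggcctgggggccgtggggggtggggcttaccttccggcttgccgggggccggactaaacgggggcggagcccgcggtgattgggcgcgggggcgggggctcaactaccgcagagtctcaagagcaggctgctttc
Bax: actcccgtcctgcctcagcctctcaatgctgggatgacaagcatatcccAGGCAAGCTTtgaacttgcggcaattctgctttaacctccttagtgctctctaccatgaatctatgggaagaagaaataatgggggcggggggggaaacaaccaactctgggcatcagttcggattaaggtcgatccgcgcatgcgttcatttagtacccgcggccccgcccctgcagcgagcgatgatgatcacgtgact
Among all 32851 windows of this length, 8.36% held a p53 half-site and 3.65% a FOXO motif, against 1 of 16 member windows (6.25%) for each. Of the 4 windows of Bax and Bbc3, 1 held a p53 half-site, that of Bax, and 1 of the 3 of Bbc3 held a FOXO motif. The Bmf window shown belongs to 1 of 3 starts of that gene, and the other 2 windows, both farther upstream, held no match. Bcl2l11 has 2 windows, of which 1 held the FOXO motif. The matches are letters in a window, and lack of a match in the others says only that these letters were not there.

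Irradiation was the first comparison, made within each genotype and as the average of both. At 20 h no probe of these 10 genes changed at an adjusted p under 0.05. Of 19 tested probes, 0 passed in wild type, where 0.0404% of all probes did, 0 in the labelled knockouts, where 0.0455% did, and 0 in the average, where 0.147% did (limma, Benjamini-Hochberg adjustment over 39589 probes). At an unadjusted p under 0.05 there were 1, 4 and 3 of the 19, where 1.86%, 6.04% and 5.67% of all probes reached it. The median difference of the 19 was 0.08 in wild type, 0.01 in the labelled knockouts and 0.02 in the average, against -0.01, 0.02 and 0.00 over all tested probes. For 14 of the 19 probes the 95% interval of the average lay within a 1.5-fold change in either direction, and for the other 5 it did not. Among the cell type markers, 5 genes did pass for averaged irradiation, all lower. They were P2ry12 among 6 microglia probes (-0.69, adjusted p = 0.000751), Neu4 and Gpr17 among 5 probes of oligodendrocyte precursors (-0.60 and -0.63, adjusted p = 0.00913 and 0.0221), and the dim Il7r and Cd79b among 4 lymphocyte probes (-0.98 and -0.74, adjusted p = 0.00469 and 0.00913). The lists did not all fall as a whole. Of the 4 lymphocyte probes 2 averaged lower and 2 higher, up to 0.26. Of the 6 microglia probes 5 averaged lower and 1 higher, and all 5 precursor probes averaged lower. The mean of the 4 microglia genes lay between 1.17 and 1.41 after irradiation, against 1.40 and 1.81 in sham in the labelled knockouts, and between 1.25 and 1.47 after irradiation, against 1.57 and 1.87 in sham in wild types. The part of these cells in the members' values was not tested. In whole cortex, fewer cells of a type and less RNA per cell cannot be told apart.

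**Figure D1:**
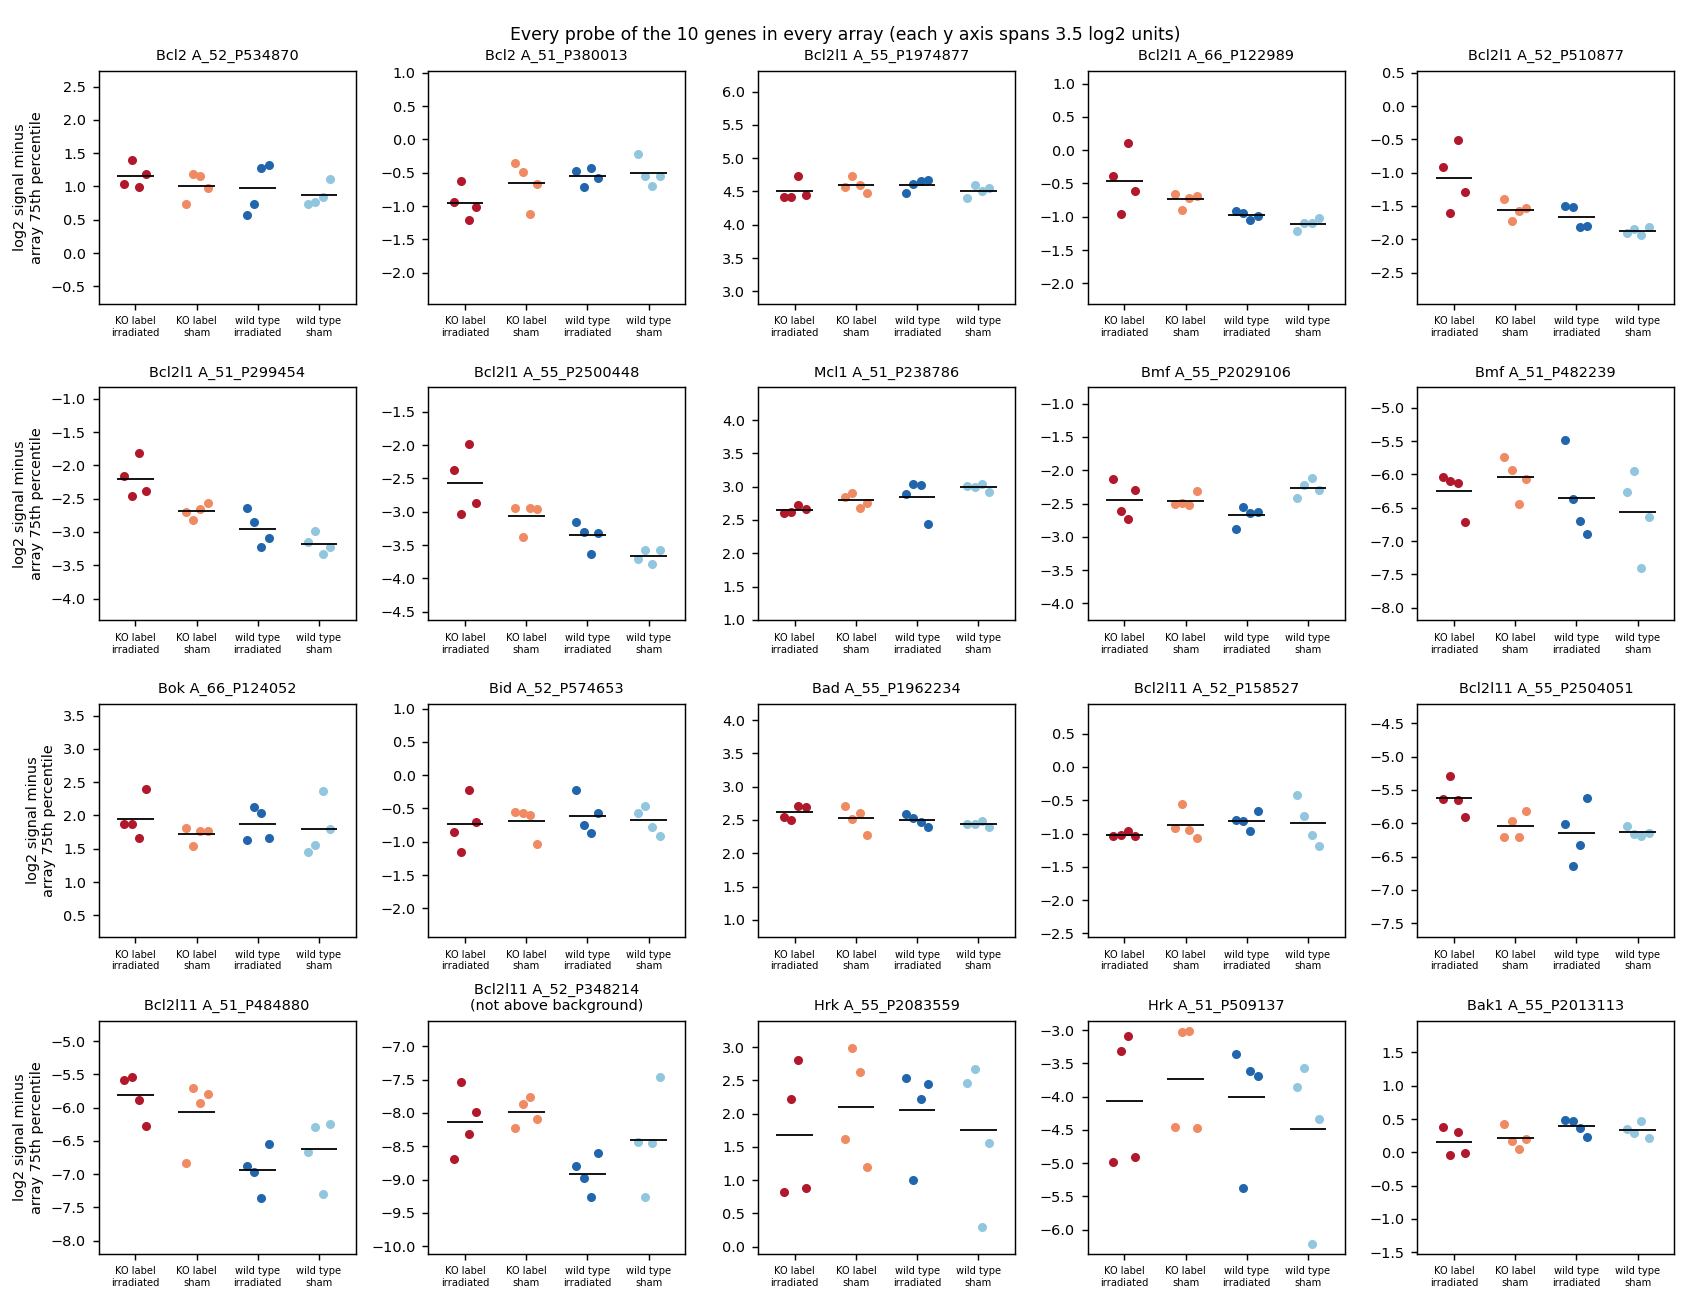
Each panel is 1 probe, with 1 dot per mouse, the group mean as a line and log2 signal minus the array's 75th percentile on the y axis, which spans 3.5 units in every panel. In most panels the 4 groups lie on top of each other. The wide vertical scatter of both Hrk panels and the step across groups of 4 Bcl2l1 panels stand out.

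Among the survival members, Mcl1, a short-lived protein that holds Bak1 and BH3-only proteins in check, read 2.60, 2.62, 2.72 and 2.66 after irradiation, against 2.84, 2.90, 2.68 and 2.75 in sham in the labelled knockouts. In wild types it read 2.88, 3.03, 3.02 and 2.45 after irradiation, against 3.01, 3.002, 3.04 and 2.93 in sham. Irradiated mice averaged slightly less in both genotypes, by 0.14 in the average (95% interval -0.33 to 0.04, adjusted p = 0.99), and the groups overlapped. Bcl2, the founding member, has 2 probes. The first, A_52_P534870, read 1.03, 1.41, 0.99 and 1.18 after irradiation, against 0.74, 1.18, 1.16 and 0.98 in sham in the labelled knockouts, and 0.57, 0.74, 1.28 and 1.32 after irradiation, against 0.73, 0.77, 0.84 and 1.12 in sham in wild types. The second, A_51_P380013, read -0.94, -0.62, -1.21 and -1.02 after irradiation, against -0.35, -0.49, -1.12 and -0.68 in sham in the labelled knockouts. In wild types the second read -0.48, -0.71, -0.43 and -0.58 after irradiation, against -0.22, -0.55, -0.70 and -0.55 in sham. The averaged irradiation difference was 0.13 (-0.14 to 0.39) on the first and -0.17 (-0.43 to 0.09) on the second, both with an adjusted p of 1, and over the 16 arrays the 2 probes did not follow each other (Pearson's r = -0.26, Spearman's rho = -0.26, permutation p = 0.323 and 0.324, adjusted p = 0.518 for both over 16 pairs of probes of 1 gene).

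Bcl2l1 has 5 probes, which fell into 2 kinds. A_55_P1974877, the brightest, read 4.41, 4.41, 4.74 and 4.45 after irradiation, against 4.57, 4.74, 4.60 and 4.48 in sham in the labelled knockouts. Wild-type mice gave 4.47, 4.62, 4.66 and 4.67 after irradiation, against 4.39, 4.60, 4.51 and 4.55 in sham. Its 16 values span 0.34, and its spread within groups (SD 0.113) was larger than that of only 3.8% of tested probes. The averaged irradiation difference was 0.00 (-0.16 to 0.15). The other 4 probes were all higher on average after irradiation in both genotypes. A_51_P299454 had the smallest p of any member for the average: it read -2.16, -2.45, -1.82 and -2.38 after irradiation, against -2.70, -2.82, -2.65 and -2.56 in sham in the labelled knockouts, without overlap. Its wild-type values were -2.64, -2.85, -3.22 and -3.09 after irradiation, against -3.15, -2.99, -3.34 and -3.23 in sham, with overlap. The averaged difference was 0.35 (0.12 to 0.59, adjusted p = 0.587), made of 0.48 in the labelled knockouts and 0.23 in wild type. It was 1 of 19 member probes whose irradiated and sham groups did not overlap in the labelled knockouts, where 2.67% of all probes did not. Probe A_55_P2500448 averaged 0.40 (0.10 to 0.70, adjusted p = 0.702), A_52_P510877 averaged 0.34 (0.06 to 0.62, adjusted p = 0.765) and A_66_P122989 averaged 0.20 (-0.06 to 0.46, adjusted p = 0.99).

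The effectors and the other BH3-only genes differed little. Bak1, which forms the membrane pore, read 0.38, -0.03, 0.30 and -0.003 after irradiation, against 0.42, 0.17, 0.05 and 0.20 in sham in the labelled knockouts. In wild types Bak1 read 0.48, 0.48, 0.37 and 0.23 after irradiation, against 0.35, 0.29, 0.47 and 0.21 in sham. Its averaged difference was 0.00 (-0.18 to 0.19). Bok, the Bak-like protein that is abundant in neural tissue and degraded when the endoplasmic reticulum works normally, read 1.87, 1.88, 1.66 and 2.40 after irradiation, against 1.81, 1.55, 1.76 and 1.76 in sham in the labelled knockouts. Wild types gave Bok values of 1.63, 2.13, 2.04 and 1.66 after irradiation, against 1.45, 1.56, 2.36 and 1.79 in sham. The averaged difference of Bok was 0.15 (-0.15 to 0.46). Bad, which growth-factor signalling holds inactive by phosphorylation, read 2.55, 2.51, 2.70 and 2.70 after irradiation, against 2.71, 2.51, 2.60 and 2.27 in sham in the labelled knockouts. Its wild-type values were 2.58, 2.53, 2.47 and 2.40 after irradiation, against 2.44, 2.45, 2.48 and 2.39 in sham, and the averaged difference was 0.07 (-0.08 to 0.23). Bad and the brightest Bcl2l1 probe gave the tightest values of the family. Bid, which caspase 8 cleaves to link death receptors to mitochondria, read -0.86, -1.15, -0.22 and -0.70 after irradiation, against -0.56, -0.57, -0.60 and -1.04 in sham in the labelled knockouts. In wild types Bid read -0.22, -0.76, -0.88 and -0.57 after irradiation, against -0.56, -0.46, -0.78 and -0.91 in sham, with an averaged difference of 0.02 (-0.28 to 0.32). In none of these 4 genes were irradiated and sham groups separated.

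Bmf, a BH3-only protein kept on the cytoskeleton until it is released, was the 1 member whose irradiated and sham wild types did not overlap, as was so for 3.07% of all probes. On A_55_P2029106 the wild types read -2.89, -2.56, -2.64 and -2.62 after irradiation, against -2.42, -2.23, -2.12 and -2.29 in sham. In the labelled knockouts that probe read -2.14, -2.61, -2.74 and -2.296 after irradiation, against -2.50, -2.50, -2.52 and -2.31 in sham. All irradiated wild types were thus below all sham wild types, by 0.41 (-0.70 to -0.12, adjusted p = 1), and no such gap was seen in the labelled knockouts (0.01, -0.28 to 0.30). The difference between these 2 responses was 0.42 (0.01 to 0.83, adjusted p = 1). The dimmer probe A_51_P482239, above background on 13 of 16 arrays, had opposite signs, 0.21 in wild type and -0.20 in the labelled knockouts, with intervals of -0.50 to 0.91 and -0.90 to 0.50. Its values were -6.03, -6.09, -6.13 and -6.71 after irradiation, against -5.74, -5.93, -6.44 and -6.06 in sham in the labelled knockouts. In wild types its values were -5.48, -6.37, -6.70 and -6.90 after irradiation, against -6.27, -5.95, -7.41 and -6.63 in sham. Irradiated and sham groups overlap on the dimmer probe in both genotypes.

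Bcl2l11, which rises on FOXO and stress-kinase signalling in other settings, has 4 probes, of which 3 were tested. The brightest, A_52_P158527, read -1.04, -1.02, -0.96 and -1.04 after irradiation, against -0.92, -0.56, -0.94 and -1.07 in sham in the labelled knockouts. In wild types it read -0.80, -0.81, -0.97 and -0.67 after irradiation, against -0.43, -0.73, -1.02 and -1.18 in sham, and the averaged irradiation difference was -0.06 (-0.29 to 0.17). The probe A_55_P2504051 read -5.64, -5.28, -5.65 and -5.90 after irradiation, against -6.20, -5.96, -6.21 and -5.82 in sham in the labelled knockouts. Wild types on that probe had -6.00, -6.64, -6.32 and -5.62 after irradiation, against -6.04, -6.16, -6.20 and -6.15 in sham. Its difference was 0.43 in the labelled knockouts (0.02 to 0.84, adjusted p = 0.782) and -0.01 in wild type. The probe A_52_P348214 was well above background on 0 of 16 arrays and was not tested, and its signals lay between -9.27 and -7.46.

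Hrk, a BH3-only gene expressed mainly in neurons and known from trophic factor withdrawal, varied more between mice of the same group than any other member. Its brighter probe A_55_P2083559 read 0.83, 2.22, 2.81 and 0.88 after irradiation, against 1.61, 2.99, 2.62 and 1.19 in sham in the labelled knockouts. Among wild types the values were 2.54, 1.005, 2.23 and 2.44 after irradiation, against 2.46, 2.67, 0.30 and 1.56 in sham. The spread within groups was an SD of 0.915, above that of 94.4% of tested probes, where the median probe had 0.295. The dimmer probe A_51_P509137 read -4.98, -3.31, -3.09 and -4.91 after irradiation, against -4.46, -3.03, -3.01 and -4.46 in sham in the labelled knockouts. Wild types on the dimmer probe had -3.36, -5.38, -3.62 and -3.69 after irradiation, against -3.85, -3.57, -6.21 and -4.34 in sham. The same 7 arrays were low on both probes: 2 irradiated and 2 sham labelled knockouts, 1 irradiated and 2 sham wild types. They lay at 1.61 or less on the brighter probe, and the other 9 at 2.22 or more. No group held only low or only high arrays, and the averaged irradiation difference of the brighter probe was -0.06 with an interval of -0.97 to 0.85, so a fall of up to 1.95-fold lies within it. Because of the gap between 1.61 and 2.22, a relation of Hrk with marker genes over all 16 arrays is not given as 1 value. Markers of other cells moved with the Hrk values. In each of the 4 groups the low arrays had a higher mean of the oligodendrocyte genes Mbp, Mog and Mag than the other arrays of that group, without overlap, and lower means of the oligodendrocyte precursor, microglia and lymphocyte markers, also without overlap. These were 4 of 13 marker lists compared so, and the arrays were divided by Hrk itself, so this is a description with no test. The mean of Mbp, Mog and Mag lay between 2.21 and 2.76 in the 7 low arrays and between 0.83 and 2.26 in the other 9. By group it lay between 1.63 and 2.69 in irradiated labelled knockouts, 0.83 and 2.76 in sham labelled knockouts, 1.0 and 2.37 in irradiated wild types, and 1.45 and 2.47 in sham wild types. Excitatory neuron and endothelial means were higher in the low arrays, without overlap, in 3 of 4 groups each, and the neuron mean was so in 1 of 4 and lower in 1. Within the 7 low arrays alone, Pearson's r of Hrk with the 13 means was between -0.39 and 0.58, and within the other 9 between -0.62 and 0.57. Both ranges pool irradiated and sham arrays of both genotypes. Irradiated arrays had lower precursor, microglia and lymphocyte means in both genotypes, so these r do not give the relation within a group. The part of tissue makeup in the Hrk values was not tested.

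**Figure D2:**
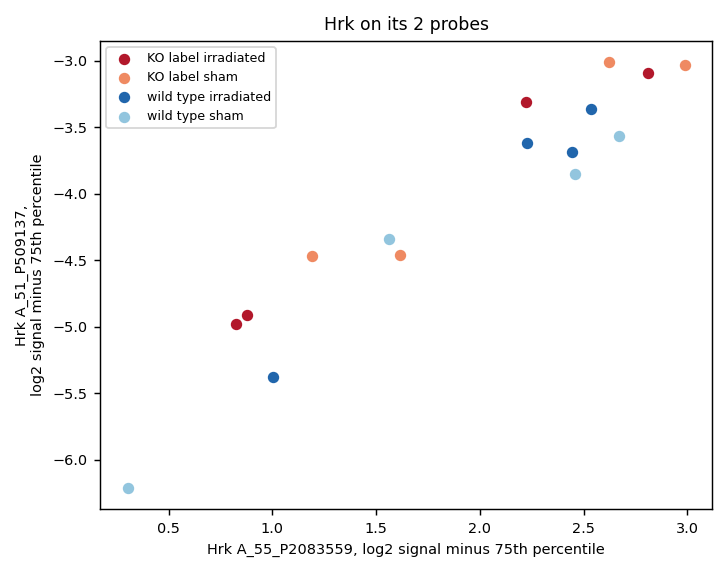
Each dot is 1 array, coloured by group, and both axes are log2 signal minus the array's 75th percentile. The brighter Hrk probe (x) is set against the dimmer one (y). The dots form 2 clouds along x, 7 arrays at 1.61 or less and 9 at 2.22 or more, and both clouds hold all 4 groups.

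The second comparison was genotype, the labelled knockouts against wild type. After irradiation 3 of the 19 member probes passed, all higher in the labelled knockouts, where 4.67% of all probes passed in either direction and 4.10% as higher. At an unadjusted p under 0.05 it was 7 of 19, against 20.6% of all probes. In sham mice 0 of 19 passed, where 0.0455% of all probes did, and 3 of 19 had an unadjusted p under 0.05, against 9.04% of all probes. The median difference of the 19 was 0.12 after irradiation and 0.09 in sham, against 0.07 and 0.01 over all probes. The 3 probes belonged to 2 genes, and the brightest probe of each of those genes did not pass.

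For Bcl2l1 the 2 called probes were A_51_P299454 and A_55_P2500448. After irradiation A_51_P299454 was 0.75 higher in the labelled knockouts (0.41 to 1.08, 1.68-fold, adjusted p = 0.0185), with all 4 above all 4 wild types. Probe A_55_P2500448 read -2.37, -3.04, -1.98 and -2.87 after irradiation, against -2.95, -3.38, -2.95 and -2.96 in sham in the labelled knockouts. In wild types it read -3.16, -3.31, -3.63 and -3.32 after irradiation, against -3.71, -3.58, -3.78 and -3.57 in sham. Its difference after irradiation was 0.79 (0.37 to 1.22, 1.73-fold, adjusted p = 0.0373), again without overlap. The same 2 probes differed by 0.49 (0.16 to 0.83, adjusted p = 0.346) and 0.60 (0.18 to 1.03, adjusted p = 0.361) in sham mice, also without overlap. Probe A_66_P122989 read -0.38, -0.96, 0.10 and -0.62 after irradiation, against -0.65, -0.90, -0.71 and -0.68 in sham in the labelled knockouts, and -0.92, -0.95, -1.05 and -0.99 after irradiation, against -1.22, -1.09, -1.10 and -1.02 in sham in wild types. Probe A_52_P510877 read -0.92, -1.60, -0.51 and -1.30 after irradiation, against -1.39, -1.73, -1.58 and -1.53 in sham in the labelled knockouts, and -1.50, -1.52, -1.82 and -1.80 after irradiation, against -1.90, -1.85, -1.93 and -1.82 in sham in wild types. Those 2 differed by 0.51 and 0.58 after irradiation (adjusted p = 0.092 and 0.0846), with overlap, and by 0.37 and 0.32 in sham, without overlap. The irradiated labelled knockout replicate 3 was the highest of the 16 arrays on all 4. The brightest probe went the other way by 0.10 after irradiation (-0.32 to 0.12, adjusted p = 0.651), and its interval does not meet those of the 2 called probes. Over the 16 arrays it correlated with the other 4 at r of -0.05 to 0.19 (rho -0.18 to 0.08, adjusted permutation p of 0.689 or more), while the 4 correlated with each other at 0.89 to 0.96 (rho 0.86 to 0.95, adjusted permutation p of 9.14e-05 or less). With group means removed the 4 still correlated at 0.73 to 0.95, and the brightest probe correlated with them at 0.12 to 0.47. Without the 2 arrays farthest from its median, the brightest probe correlated with them at -0.5 to -0.24. The files pair these probes with 3 RefSeq entries of the gene, and their positions in the transcripts were not used here.

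**Figure D3:**
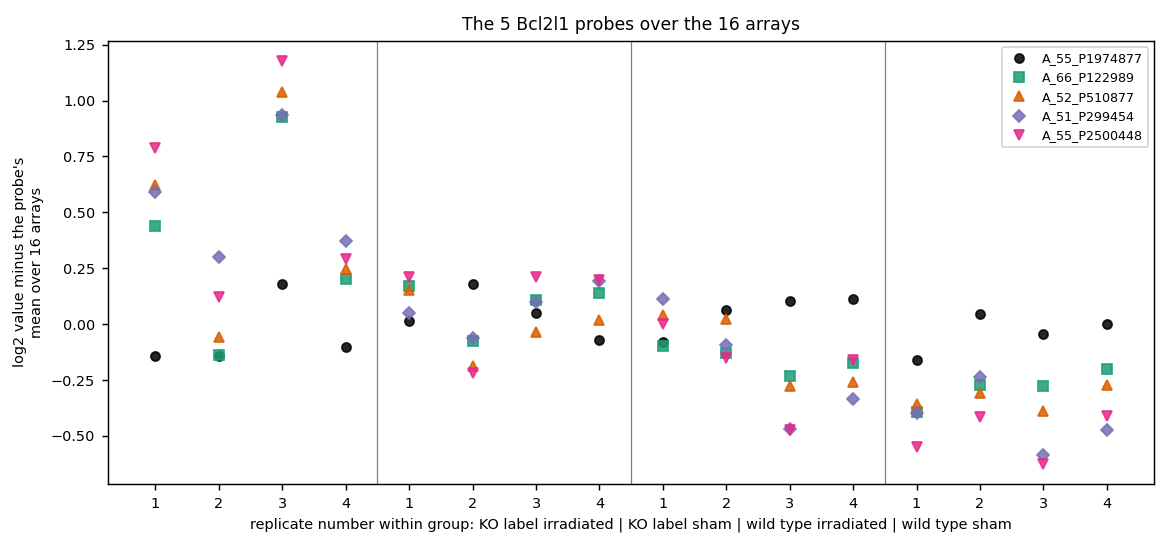
Each mark is 1 of the 5 Bcl2l1 probes on 1 array, as log2 value minus that probe's mean over the 16 arrays (y), with the arrays on x by group and replicate number. The 4 coloured probes lie highest in irradiated labelled knockouts and lowest in sham wild types, while the black marks of the brightest probe stay within 0.34 log2 units.

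Array brightness and, on the scale used here, neuron markers also differed on average between labelled knockouts and wild types. The mean of 4 neuron genes (Rbfox3, Snap25, Syt1 and Tubb3) lay between 4.99 and 5.16 in the 8 labelled knockouts and between 4.84 and 4.95 in the 8 wild types, without overlap. Under each other scaling the 2 genotypes did overlap. In labelled knockouts and wild types the ranges were 5.38 to 5.64 and 5.34 to 5.47 under normexp background correction. They were 15.84 to 16.07 and 15.71 to 15.87 under quantile scaling, and 8.71 to 9.35 and 8.83 to 9.17 under median centring. After irradiation 7 of 7 neuron probes and 5 of 5 probes of excitatory neurons averaged higher in the labelled knockouts (medians 0.21 and 0.27, 0 of them called), against 4 of 7 and 4 of 5 under median centring (medians 0.01 and 0.06). In sham mice it was 6 of 7 and 5 of 5 (medians 0.22 and 0.29). The 4 dimmer Bcl2l1 probes correlated with the log2 75th percentile at r of -0.74 to -0.58 over 16 arrays (rho -0.77 to -0.59, adjusted permutation p of 0.0229 or less over 5 probes), and at -0.73 to -0.55 without the 2 farthest arrays. That percentile is itself subtracted from each probe value, so a negative r is partly built in. The permutations ignored group and slide, so their p does not separate brightness from group. Within the slide of the labelled knockouts r was -0.52 to -0.23, within that of the wild types -0.41 to 0.19, and with group means removed 0.02 to 0.24. With 4 arrays per group, these values do not decide whether a relation holds within groups. Without irradiated labelled knockout replicates 3 and 4, the 2 dimmest arrays, the 2 called probes differed by 0.64 and 0.65 (adjusted p = 0.0926 and 0.112). Leaving out 1 array, A_51_P299454 lost its call without irradiated wild-type replicate 3 alone (0.66, adjusted p = 0.0734). Probe A_55_P2500448 lost it, at adjusted p of 0.052 to 0.131, without irradiated labelled knockout replicate 1 or 3, irradiated wild-type replicate 2, 3 or 4, or sham wild-type replicate 2. The part of array brightness and of neuron content in the Bcl2l1 difference was not tested.

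For Bcl2l11 the called probe was the dim A_51_P484880, which read -5.58, -5.54, -5.88 and -6.27 after irradiation, against -6.84, -5.70, -5.93 and -5.79 in sham in the labelled knockouts. Wild types had -6.87, -6.97, -7.35 and -6.55 after irradiation, against -6.67, -6.29, -7.30 and -6.25 in sham. After irradiation it was 1.12 higher in the labelled knockouts (0.50 to 1.73, 2.17-fold, adjusted p = 0.0414), without overlap, but it was well above background on only 3 of 4 irradiated labelled knockouts and 2 of 4 irradiated wild types. It lost the call on leaving out any 1 of 10 arrays: irradiated labelled knockout replicate 1, 2 or 3, sham labelled knockout replicate 3, any irradiated wild type, or sham wild-type replicate 1 or 2 (adjusted p 0.0505 to 0.142). Probe A_55_P2504051 differed by 0.53 after irradiation (0.12 to 0.94, adjusted p = 0.123), and the brightest, A_52_P158527, by -0.21 (-0.54 to 0.12, adjusted p = 0.5). The brightest did not follow the other 2 over the 16 arrays (r = -0.12 and -0.15).

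No other member passed in either genotype comparison. After irradiation the second Bcl2 probe differed by -0.40 (-0.76 to -0.03, adjusted p = 0.201) and Bak1 by -0.23 (-0.49 to 0.03, adjusted p = 0.307). In sham mice all 4 labelled knockouts lay below all 4 wild types for Mcl1, by 0.20 (-0.46 to 0.06, adjusted p = 0.686). With the 4 dimmer Bcl2l1 probes that made 5 of 19 member probes without overlap in sham, where 5.66% of all probes had none, and after irradiation there were 3 of 19, against 12.0% of all probes. Bok, Bid, Bad, Bmf and Hrk overlapped in both.

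The irradiation response differed between genotypes at an adjusted p under 0.05 for 0 of 19 member probes, as for 0% of all probes (limma). At an unadjusted p it was 1 of 19, the Bmf probe given above, and 1.90% of all probes. For the 4 dimmer Bcl2l1 probes the labelled knockouts' response exceeded that of wild type by 0.14 to 0.26, with intervals that include 0.

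**Figure D4:**
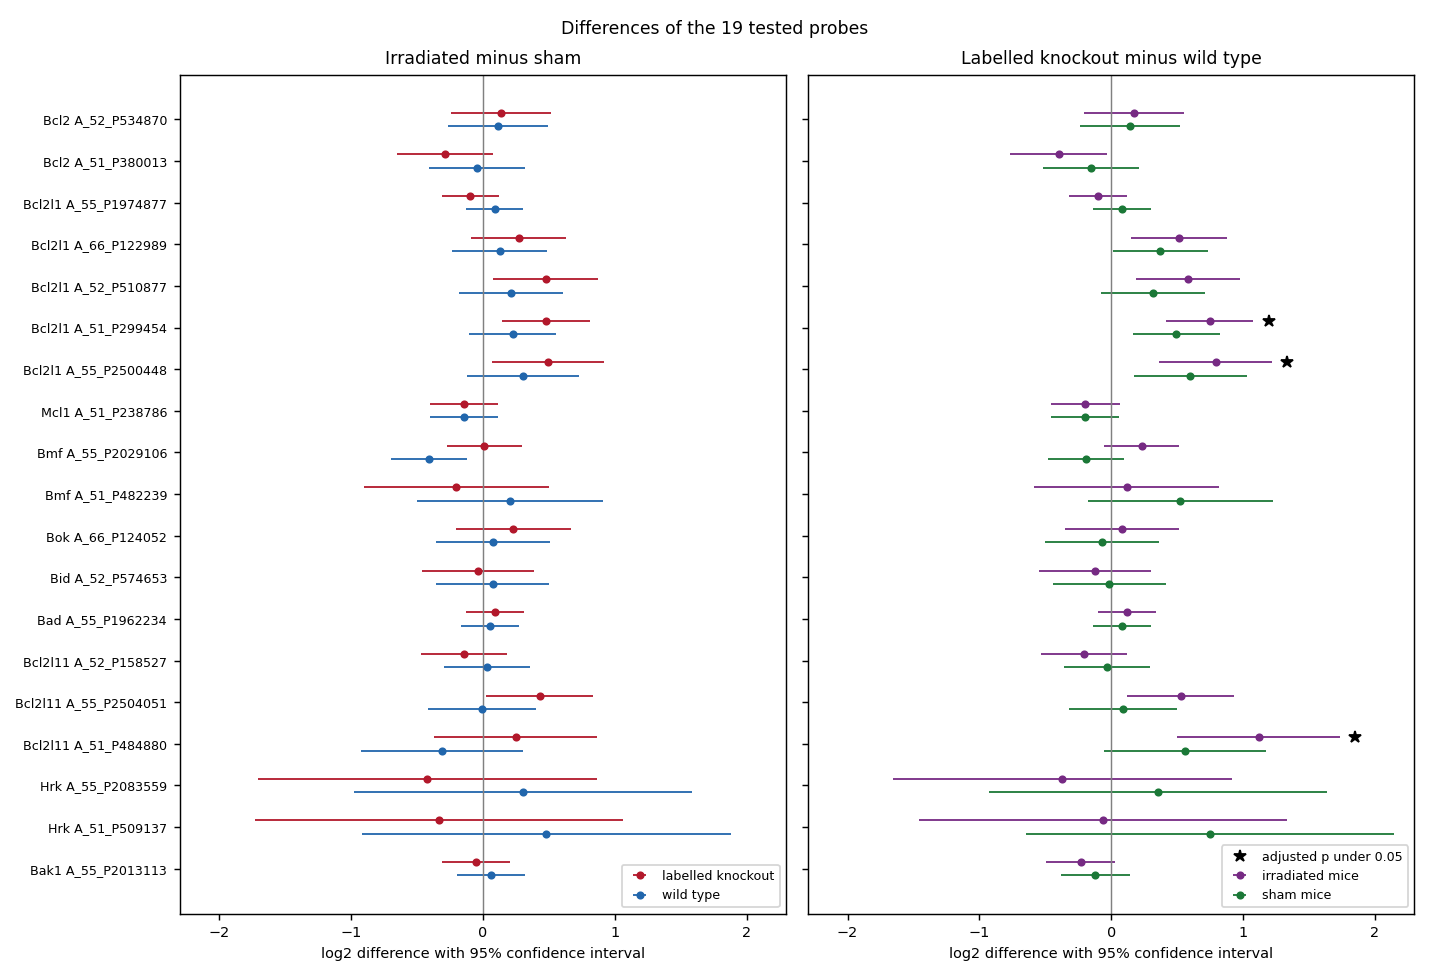
Points are log2 differences of the 19 tested probes and bars their 95% confidence intervals, irradiated minus sham on the left and labelled knockout minus wild type on the right. Stars mark the 3 probes with an adjusted p under 0.05, all on the right in irradiated mice. The longest bars are those of Hrk.

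Other genes of the pathway were counted from lists drawn up by function, with earlier results of these data known. The p53-induced relatives Bax, a pore former, and Bbc3 (Puma) and Pmaip1 (Noxa), both BH3-only, gave 4 probes. All 4 were higher on average after irradiation in both genotypes, with a median of 0.25 in wild type and 0.09 in the labelled knockouts, and 0 of 4 passed. In the labelled knockouts Bbc3 and both Bax probes had the opposite sign under some alternative settings, down to -0.09 for Bbc3 and -0.25 and -0.13 for Bax. Bbc3 read 0.07, 0.20, 0.54 and 0.31 after irradiation, against 0.02, 0.49, 0.26 and 0.12 in sham in the labelled knockouts. In wild types Bbc3 read 0.42, 0.38, 0.15 and 0.32 after irradiation, against -0.03, 0.20, 0.03 and 0.03 in sham, and its averaged difference was 0.16 (-0.04 to 0.35, adjusted p = 0.973). Bax averaged 0.19 (-0.07 to 0.45) on A_55_P2137406 and 0.14 (-0.10 to 0.38) on A_51_P254541, and Pmaip1 averaged 0.32 (-0.17 to 0.82), all with an adjusted p of 1. The 9 tested probes of 7 further family genes, among them Bnip3l and Bcl2l13, gave 0 calls in any comparison.

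Downstream of the mitochondrion, 30 probes of 18 apoptosome, caspase and inhibitor genes gave 0 calls for irradiation. Xiap, which blocks caspases, differed by 0.37 in the average (adjusted p = 0.802), and Diablo, which relieves that block, by 0.19 (adjusted p = 0.914). After irradiation 3 of the 30 were higher in the labelled knockouts than in wild type, where 4.10% of all probes were: Casp9, the apoptosome's caspase (0.85, adjusted p = 0.0196), Xiap (0.94, adjusted p = 0.0256) and Diablo (0.56, adjusted p = 0.0305). A brighter probe of each gene did not pass: Casp9 differed by -0.11, Xiap by 0.02 and Diablo by 0.07 (adjusted p = 0.759, 0.961 and 0.775). Among 36 probes of 20 regulators and partners, 0 passed for irradiation, and the smallest p belonged to Foxo3, a transcription factor known to drive Bcl2l11 (0.41, adjusted p = 0.744), Ywhaz, a 14-3-3 protein that holds Bad (0.33, adjusted p = 0.866), and Akt1, the kinase upstream of Foxo3 and Bad (0.42, adjusted p = 0.877). After irradiation 4 of the 36 were higher in the labelled knockouts, against the same 4.10% of all probes: Foxo3 on both probes (1.20 and 1.18, adjusted p = 0.00971 and 0.0125), Akt1 (1.25, adjusted p = 0.0233) and Huwe1, a ubiquitin ligase of Mcl1 (1.13, adjusted p = 0.0305). Among 9 probes of 7 mitochondrial membrane genes, Opa1, which shapes the inner membrane, was 0.35 higher (adjusted p = 0.0487), and 0 passed for irradiation, where Vdac1 (0.13), Mff (0.15) and Opa1 (0.06) had the smallest p. Of 6 probes of 4 microglia genes, 1 Csf1r probe was 0.83 higher in the labelled knockouts after irradiation (adjusted p = 0.0128) and P2ry12 was lower (-0.42, adjusted p = 0.039), while the brighter Csf1r probe differed by -0.22 (adjusted p = 0.421). Their part in these differences was not tested, and every one of the genes named here lost its call under at least 1 alternative setting.

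The genes whose brightest probe was most like the dimmer Bcl2l1 probes over the 16 arrays were sought among 17370 genes. For A_51_P299454 they were Ap2m1, Zfp384 and Pi4kb (r = 0.943, 0.941 and 0.937). For A_55_P2500448 they were Elmo2, Ahcy and Rnh1 (0.962, 0.96 and 0.945), and for A_52_P510877 Elmo2, Cog8 and Ahcy (0.95, 0.945 and 0.94). These are descriptions over arrays that share slides and brightness. With group means removed, r lay between 0.698 and 0.919.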

How the data were processed

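Per the labels' protocols, Cy3-labelled cRNA from cortex total RNA was hybridised to 1-colour arrays. Per the file headers, the authors extracted each array with Agilent Feature Extraction 12.0.3.1 at 3 micron, and the deposited intensity used here is its processed signal, background-subtracted within the array; the array design names mm9. The deposited flags gave background and outlier status. The authors also deposited a table of scores per feature, used as an alternative only; no source used here says how.

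Each array's 75th percentile of log2 processed signal was subtracted, controls were left out, outlier spots were dropped and repeat spots averaged. Probes well above background on at least 4 of 16 arrays, with values on at least 12, were tested. One model with a mean per group was fitted by limma 3.58.1 (R 4.3.3, statmod 1.5.0; 12 residual degrees of freedom), two-sided, with 6 contrasts and Benjamini-Hochberg adjustment over 39589 probes; the procedure was tested on simulated data. Permutation tests used 100000 resamples (scipy 1.17.1). All member probes are named. From the lists, called genes, the p53-induced trio and the 3 smallest p for averaged irradiation are named, except items not reported here. Members and lists were chosen with earlier results of these data known. Names came through RefSeq (GRCm38.p6), whose coordinates are used for its own promoter windows only. Alternatives were normexp (on the median signal, since no mean signal was given), quantile and median scaling, 3 filters, other fits, the scores, and left-out arrays. The replicate numbers of the titles are array columns on the slide, and were not taken to pair samples in the main fit (same-number correlations -0.491 to 0.519).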

Additional observations from a re-analysis of the deposited data

Results flagged for a closer look

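Of 80 sets of 4 values, 20 probes in 4 groups, 6 had 1 array that stood apart from the other 3 by more than Dixon's 95% limit for 4 values; chance marks about 1 in 20 such sets. For the brightest Bcl2l1 probe, A_55_P1974877, irradiated labelled knockout replicate 3 was at 4.735, with the nearest of its group at 4.452. For the Bcl2l1 probe A_55_P2500448, sham labelled knockout replicate 2 was at -3.379, with the nearest at -2.959. For the Bmf probe A_55_P2029106, sham labelled knockout replicate 4 was at -2.305, with the nearest at -2.495, and for the dim Bmf probe A_51_P482239, irradiated labelled knockout replicate 4 was at -6.711, with the nearest at -6.131. For Bid, sham labelled knockout replicate 4 was at -1.04, with the nearest at -0.605. For the dimmer Hrk probe A_51_P509137, irradiated wild-type replicate 2 was at -5.379, with the nearest at -3.686.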

How the results depend on the processing

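No member probe was called for irradiation, for genotype in sham mice or for the difference of responses under any of the 28 alternatives that could be fitted, and no called difference changed sign. The 3 calls for the labelled knockouts against wild type after irradiation did depend on the settings. There were 8 under normexp background correction, 1 in the fit of the 2 groups only, and 0 under quantile scaling, median centring, the deposited scores or without the 2 dimmest arrays, and 0 to 4 when 1 array was left out (0 without irradiated wild-type replicate 3). With only the brightest probe per gene there were also 0, but that setting leaves out the 3 called probes and cannot test them. With the replicate number as a block there were 3 (adjusted p = 0.0304, 0.046 and 0.0413). Over the whole array this comparison gave 1848 calls, between 5 (without the 2 dimmest arrays) and 14001 (normexp), with 133 under median centring, 599 under quantile scaling, 7037 with no filter on dim probes and 2322 with the block. Leaving out 1 array gave 303 to 2519. Median centring moved the median difference of all probes to -0.14, against 0.07 here, so genotype differences are relative to that choice; the 2 called Bcl2l1 probes were then 0.54 and 0.59 higher and Bcl2l11 0.91. Higher calls were 1623 of 1848 here, 428 of 599 under quantile scaling and 96 of 133 under median centring. The cause of these changes was not tested. With 4 arrays per group, the 95% interval of the brighter Hrk probe reached 1.95-fold for averaged irradiation and 3.26-fold within the labelled knockouts, so changes of that size could have been missed, and signal over background limits A_51_P482239, A_51_P484880 and A_52_P348214.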
